A study of Mus musculus with 610 samples.

Results

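B6 DN2 thymocytes are early T cell progenitors of the thymus. Here they were the 78 cells of 1 run whose column names in the deposited table carry the B6 DN2 label, of 610 cells in 8 runs in all. Each cell was captured alone on a microfluidic chip, and 48 assays were read in it by quantitative PCR. The value is a threshold cycle, Ct, which is low where a transcript is abundant. A transcript was called detected where Ct was below 24. Its level was taken as 24 minus Ct, so that 1 unit is 1 PCR cycle. Levels of different assays were not set against each other, because assays can differ in efficiency.

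The DN2 cells were taken from C57BL/6J thymus at postnatal days 7 to 10 and sorted as live cells that were CD44+, CD25+ and cKit+ and stained neither for TCRd, the delta chain of the T cell receptor, nor for lineage markers. B6 DN1d cells, 223 in 3 runs of 72, 70 and 81, came from the same strain and ages but were CD25-, cKit- and CD24+. Rag1-/- cKit- cells, 223 in 3 runs of 89, 52 and 82, came from B6.129S7-Rag1tm1Mom mice of postnatal days 0 to 2 and were CD44+, CD25- and cKit-, with no CD24 gate. Tcrd-/- DN1d cells, 86 in 1 run, came from B6.129P2-Tcrdtm1Mom mice of postnatal days 7 to 10 under the DN1d gate. Rag1-/- mice cannot rearrange receptor genes, so their cells carry no finished T cell receptor. The labels do not name the animals of a run or say whether several were pooled. All DN2 cells come from 1 run, so the DN2 population and its run cannot be told apart. What is described inside DN2 is the spread between cells of that run, with no test. Intervals of shares are exact binomial intervals at 95% and cover counting error only.

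DN2 is the stage at which a thymocyte that has received a Notch signal begins to close its other options. Spi1, which encodes PU.1, sustains myeloid and progenitor potential and is switched off as commitment proceeds, while Bcl11b is switched on and seals T cell identity. Rag2 encodes a subunit of the recombinase that cuts receptor genes. Zbtb16, which encodes PLZF, is known from innate-like lymphocytes, and Sox13 and Maf from interleukin 17 producing gamma delta T cells (Tgd17 cells). A DN2 population therefore holds cells that carry factors of several programmes side by side, which single-cell data can show and a pooled sample cannot.

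The markers of the stage were present. Cpa3, a mast cell and progenitor protease, Notch1, the receptor that starts the T cell programme, and Myb, a progenitor transcription factor, were detected in all 78 cells. Spi1 was detected in 63 cells and Rag2 in 45. The myeloid assays were nearly empty: Csf2rb2 was detected in 0 of 78 cells, a count that allows up to 3.85%, Gp49a in 1 and Csf1r in 2. The summed level of these 3 assays was 0 in 75 cells and reached 10.08 cycles in the highest cell. Of the assays named for receptor junctions, Vd4-Jd1 was detected in 1 cell and Vg2-Jg1 and Vd5-Jd1 in 0. No gene of the B cell list of 4 was in the panel.

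Of the 48 assays, 12 were detected in every DN2 cell, 21 in at least 90% of cells, 16 in 10% to 90%, 7 in fewer than 10% and 4 in no cell. The genes detected in every cell, beside the 3 markers above, were Cdk6, a cyclin-dependent kinase of early progenitors, the reference gene Gapdh, the T lineage factors Gata3, Tcf7, Runx1, Ets1 and the E47 form of Tcf3, the kinase gene Syk and Sox4. A further 9 assays reached 90%: Tox and Smo in 77 cells, Mcm2 in 76, Tcf12 in 75, Il7r, Scart2 and the E12 form of Tcf3 in 73, and Dna2 and Tbx21 in 71. Variation in detection therefore lay in the 16 middle assays. These were Sox13 (69 cells), Bcl11b (68), E2f2 (65), Spi1 (63), Id2 (61), Maf (47), Rag2 (45), Zbtb16 (42), Bhlhe40 (33), Gzma (26), Cdh1 (20), Nfil3 (19), Egr2 (16), Blk (10), Il17re (9) and Gpr183 (8). Lef1 and Etv5 were each seen in 6 cells and Ccr9 and Cd163l1 in 1 cell each. The plot of detection shares gives the whole order.

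**Figure D1:**
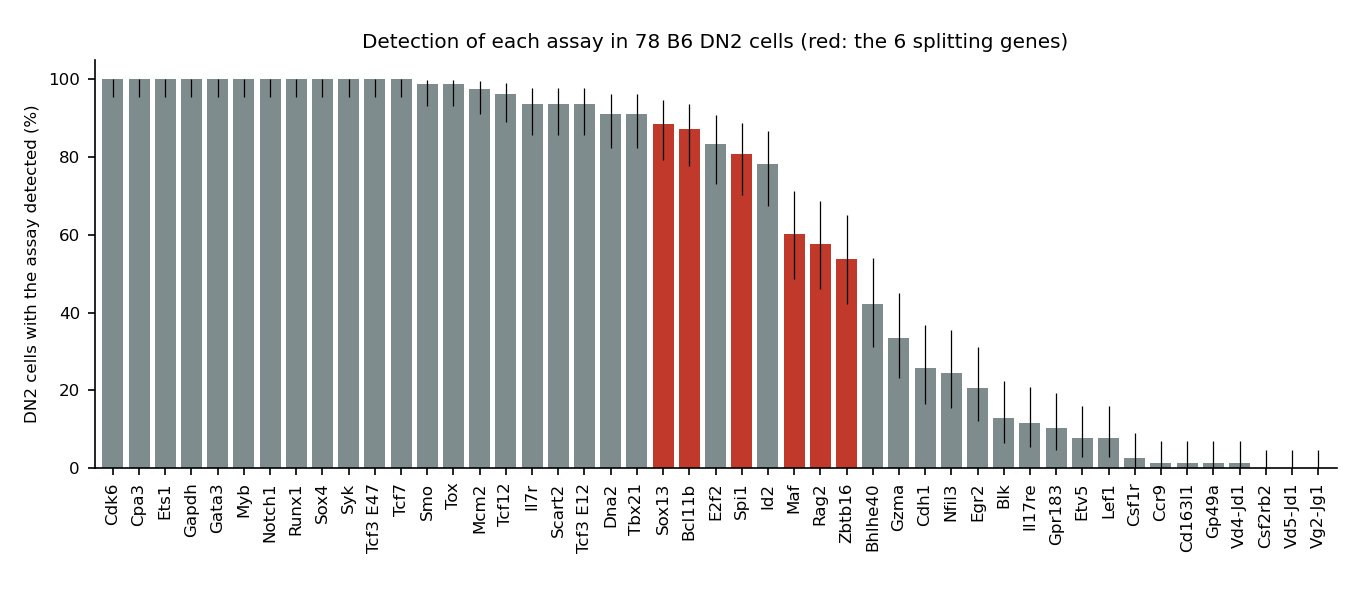
Share of the 78 B6 DN2 cells in which each of 47 assays was detected, in percent, with exact 95% binomial intervals as black lines; the 6 genes used to split the cells (Rag2, Zbtb16, Spi1, Bcl11b, Maf and Sox13) are red. Assays fall from 100% at the left to 0% at the right, and the 6 red bars lie between 53.8% (Zbtb16) and 88.5% (Sox13).

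The cells differed less in the number of assays than in level. Each had 23 to 34 assays detected, with a median of 28 (mean 28.5 ± 2.47, SD over cells). The Gapdh level ran from 12.77 to 17.13 cycles with a median of 15.00. The mean level over the 21 assays seen in at least 90% of cells, used below as the overall level of a cell, ran from 7.96 to 12.65 with a median of 9.98. A median of 28 assays was more than in any B6 DN1d run (19 to 20) or Rag1-/- cKit- run (22 to 25) and less than in the Tcrd-/- DN1d run (32).

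Rag2, Zbtb16, Spi1, Bcl11b, Maf and Sox13 each split the DN2 cells. Sox13 was detected in 88.5% (interval 79.2 to 94.6), Bcl11b in 87.2% (77.7 to 93.7) and Spi1 in 80.8% (70.3 to 88.8), and these intervals overlap. Maf was detected in 60.3% (48.5 to 71.2), Rag2 in 57.7% (46 to 68.8) and Zbtb16 in 53.8% (42.2 to 65.2), which overlap in turn. No cell lacked all 6 genes. A cell held 1 of them in 1 case, 2 in 3 cells, 3 in 12, 4 in 26, 5 in 29 and all 6 in 7. Of the possible combinations, 26 were seen, 12 of them in 1 cell each. The commonest had all but Maf (11 cells) and all but Zbtb16 (10 cells). Spi1, Bcl11b and Sox13 were found together in 52 of the 78 cells, and these cells differed among themselves in Rag2, Zbtb16 and Maf.

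The 6 genes differed in how the detected cells approached the detection limit. Where Spi1 was detected its level was 1.96 at the lowest, 8.10 at the median and 11.25 at the highest, and 1 of 63 cells lay under 4 cycles. Rag2 ran from 2.72 through 7.40 to 11.48, with 2 of 45 cells under 4. Sox13 ran from 2.79 through 7.24 to 11.72, with 2 of 69 under 4. These 3 genes therefore left few cells between clearly detected and undetected. Bcl11b ran from 0.31 through 7.53 to 11.08, and 13 of its 68 cells lay under 4 cycles, 5 of them under 2. Maf ran from 0.53 through 5.96 to 9.19, with 13 of 47 cells under 4 and 6 under 2. Zbtb16 ran from 1.36 through 5.85 to 9.58, with 5 of 42 under 4. With detection set at Ct below 20, the share of Bcl11b was 70.5% and that of Maf 43.6%, while Spi1 stood at 79.5%, Sox13 at 85.9%, Rag2 at 55.1% and Zbtb16 at 47.4%. Bcl11b and Maf were thus graded genes in DN2, and their negative cells adjoin a tail of weakly positive ones.

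Among genes detected in at least 20 cells, the widest spread of level was that of Id2, the inhibitor of E proteins, with an interquartile range of 4.37 cycles. Its level ran from 0.24 through 4.88 to 11.60, and 14 of 61 cells lay under 2 cycles. Maf (3.17), Bcl11b (3.08), Scart2, a scavenger receptor gene of gamma delta T cells (2.79), Zbtb16 (2.74), E2f2, a cell cycle factor (2.64), Cdh1, E-cadherin (2.57), and Spi1 (2.48) followed. Cdk6, by contrast, had a range of 1.38 around a median of 13.78. Tbx21, the T-bet gene, was detected in 71 cells, but its median was 3.98 cycles, and 37 of these cells lay under 4. Most of its detections therefore sat near the limit. The plot of levels by cell shows these shapes.

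**Figure D2:**
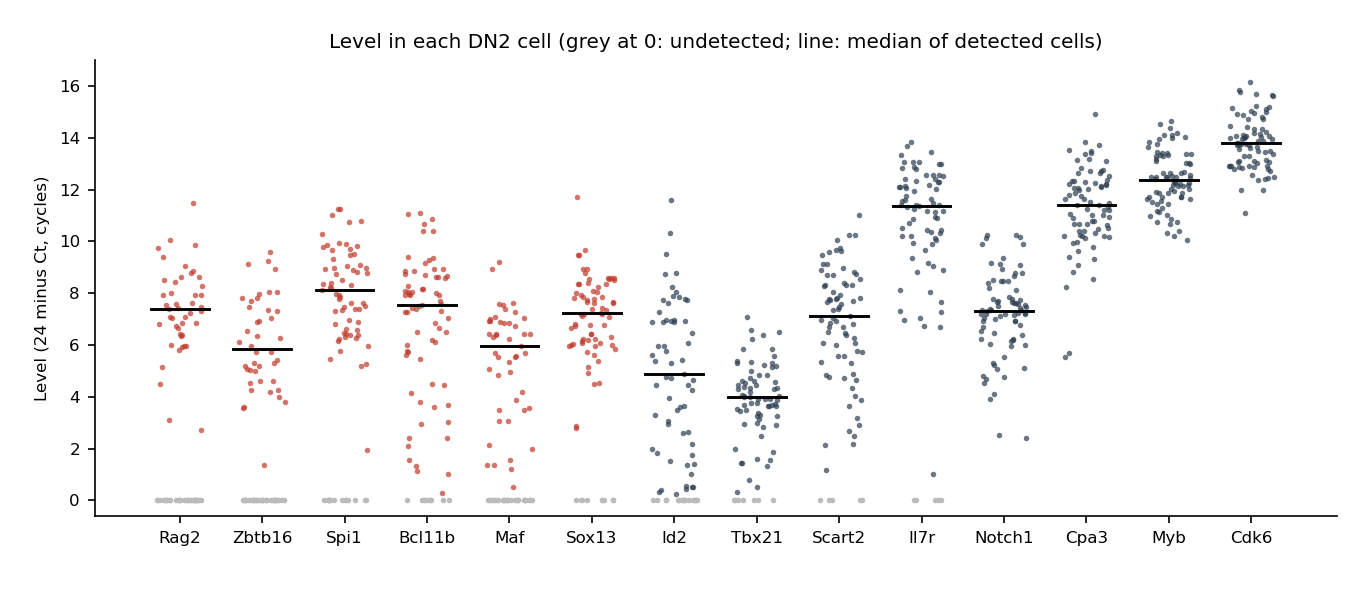
Level of 14 genes in each of the 78 DN2 cells (vertical axis, 24 minus Ct, in cycles), red for the 6 splitting genes and dark blue for 8 others; grey points at 0 are undetected cells and the black line is the median of detected cells. Spi1, Rag2 and Sox13 leave a gap above 0, whereas Bcl11b, Maf and Id2 spread down to 0.

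Cells with and without Rag2 (45 and 33) were compared first. The partners named for each split are those with the 4 largest and 4 smallest differences among 15, so their size is favoured by the choice. Nfil3, a transcription factor of innate lymphoid development, was detected in 16 of 45 cells with Rag2 (35.6%, interval 21.9 to 51.2) and in 3 of 33 without it (9.09%, 1.92 to 24.3). Bcl11b was in 42 of 45 against 26 of 33, Gzma, a granzyme gene, in 18 of 45 against 8 of 33, and Id2 in 38 of 45 against 23 of 33. Fewer cells with Rag2 held Egr2, an early response gene of receptor signalling (6 of 45 against 10 of 33), Zbtb16 (22 of 45 against 20 of 33), Maf (26 of 45 against 21 of 33) and Il17re (5 of 45 against 4 of 33). Even for Nfil3 the intervals of cells with and without Rag2 overlapped slightly. The level of Il7r, the interleukin 7 receptor that sustains these cells, had a median of 11.58 with Rag2 and 10.04 without, and Ets1 one of 11.77 and 10.44. After the overall level of each cell was subtracted these gaps were 0.74 and 0.26 cycles.

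Cells with Zbtb16 (42) and without it (36) differed little. Nfil3 was again the partner with the largest gap, in 14 of 42 cells with Zbtb16 (33.3%, 19.6 to 49.5) and 5 of 36 without (13.9%, 4.67 to 29.5). Egr2 was in 11 of 42 against 5 of 36, Spi1 in 35 of 42 against 28 of 36 and Gpr183, a homing receptor, in 5 of 42 against 3 of 36. Rag2 was in 22 of 42 against 23 of 36, Maf in 24 of 42 against 23 of 36, Gzma in 13 of 42 against 13 of 36 and Id2 in 32 of 42 against 29 of 36. The intervals of with and without overlapped for all 8. Scart2 had a median level of 6.43 with Zbtb16 and 7.80 without, a gap of -0.74 cycles once the overall level of the cell was subtracted. Tox, another factor of innate lymphoid development, was detected in 77 of the 78 cells and could not divide them.

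Spi1 was undetected in 15 cells, and these lacked 3 rare transcripts entirely. Blk, a receptor signalling kinase, was in 10 of 63 cells with Spi1 and 0 of 15 without, Il17re in 9 of 63 and 0 of 15, and Gpr183 in 8 of 63 and 0 of 15. At 15 cells a count of 0 has an upper interval bound of 21.8%, above the shares of 15.9%, 14.3% and 12.7% in cells with Spi1, so no difference was detectable at this number of cells. E2f2 was in 54 of 63 against 11 of 15. Cells with Spi1 less often held Gzma (19 of 63 against 7 of 15), Id2 (48 of 63 against 13 of 15), Cdh1 (15 of 63 against 5 of 15) and Maf (37 of 63 against 10 of 15), with overlapping intervals. Ets1 had a median level of 11.10 with Spi1 and 11.88 without, a gap of -1.31 once the overall level of the cell was subtracted.

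Only 10 cells lacked Bcl11b. Rag2 was in 42 of 68 cells with Bcl11b (61.8%, 49.2 to 73.3) and in 3 of 10 without (30.0%, 6.67 to 65.2). Nfil3 was in 19 of 68 against 0 of 10, Gzma in 25 of 68 against 1 of 10 and Sox13 in 62 of 68 against 7 of 10. Maf was in 39 of 68 against 8 of 10, Blk in 7 of 68 against 3 of 10, Egr2 in 13 of 68 against 3 of 10 and Zbtb16 in 36 of 68 against 6 of 10. The intervals overlapped for all 8 partners. Of the 21 common genes, 4 singled out after their values were seen had these levels: Scart2 had a median of 7.36 with Bcl11b and 4.25 without, Ets1 of 11.55 and 10.09, Tcf12, which encodes the E protein HEB, of 10.80 and 9.64, and Syk of 9.92 and 10.89. With the overall level of the cell subtracted these gaps were 2.47, 0.66, 0.68 and -1.49 cycles. Dna2 and Cpa3 had gaps of 1.17 and 1.03, or 0.61 and 0.13 after subtraction. The ranges of cells with and without Bcl11b overlapped for all 6 of these genes.

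Splits by Maf and Sox13 were weaker or rested on few cells. Bhlhe40, a basic helix-loop-helix repressor, was in 23 of 47 cells with Maf (48.9%) and 10 of 31 without (32.3%). Differences of Gzma, Id2 and Blk were under 2 percentage points. Cdh1 was in 10 of 47 against 10 of 31, Bcl11b in 39 of 47 against 29 of 31, Sox13 in 40 of 47 against 29 of 31 and Nfil3 in 10 of 47 against 9 of 31. Sox13 was undetected in 9 cells, of which none held Nfil3 (19 of 69 with Sox13) or Egr2 (16 of 69), 6 held Bcl11b (62 of 69), 1 held Cdh1 (19 of 69), 7 held Maf (40 of 69), 4 held Bhlhe40 (29 of 69), 5 held Zbtb16 (37 of 69) and 1 held Gpr183 (7 of 69). A count of 0 of 9 has an upper bound of 33.6%, above the shares in cells with Sox13.

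The yield of a cell moved with some of these splits. The median number of other assays detected was 28 with and 25 without Sox13, and 28 with and 25.5 without Bcl11b. It was 28 and 27 for Rag2 and Spi1, and 28 on both sides for Zbtb16 and Maf. The overall level of the cell had a median of 10.02 with Sox13 and 8.65 without. Weighted over 2 strata of the number of other assays, the gap in Nfil3 was 23.8 percentage points in place of 26.5 for the Rag2 split and 19.6 in place of 27.5 for the Sox13 split. Other gaps grew: that of Gzma was -23.7 in place of -16.5 and that of Id2 -15.4 in place of -10.5 for the Spi1 split, and that of Bhlhe40 -7.86 in place of -2.42 for the Sox13 split. Gapdh medians differed by little, between 14.89 and 15.05 in all 12 classes.

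Spi1 and Bcl11b, the factors that are known to trade places at commitment, were both common in DN2. Both were detected in 55 cells, where their separate shares give 54.9 for independent genes (log odds ratio 0.19), Spi1 alone in 8, Bcl11b alone in 13 and neither in 2. Rag2 was in 35 of the 55 cells with both, 2 of the 8 with Spi1 alone and 7 of the 13 with Bcl11b alone. Maf was in 30 of 55, 7 of 8 and 9 of 13. Gzma and Nfil3 were seen in none of the 8 cells with Spi1 alone, against 19 and 16 of 55 with both and 6 and 3 of 13 with Bcl11b alone. Ets1 had medians of 11.43 with both, 10.02 with Spi1 alone and 11.88 with Bcl11b alone, and Tcf12 followed the same order with 10.63, 9.64 and 11.06. Syk ran the other way, with 10.03, 10.89 and 9.49. Scart2 stood at 7.34, 3.16 and 7.59. The ranges of the classes overlapped for each of these genes, and the class with Spi1 alone holds 8 cells.

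Levels added what detection did not show. In the 68 cells with Bcl11b, its level went with that of Ets1, a Spearman correlation of 0.72, and with those of Tcf12 (0.61 over 65 cells) and Il7r (0.55 over 65). With the overall level of each cell subtracted from both genes these were 0.64, 0.44 and 0.40. In the 63 cells with Spi1, its level went with Syk (0.67), Tox (0.55 over all 63 cells with both) and Cdk6 (0.50), and after subtraction with 0.62, 0.54 and 0.47. Between Spi1 and Bcl11b themselves, over the 55 cells with both, the correlation was -0.03 and after subtraction -0.30. Bcl11b and Syk moved from 0.19 to -0.28 under the same subtraction, and Spi1 and Cpa3 from 0.04 to -0.32. Before subtraction the partners were in part shared: Cdk6 also went with Bcl11b (0.41), and Runx1 with both Bcl11b (0.52) and Spi1 (0.47). After it, Ets1, Tcf12 and Il7r had -0.16, -0.18 and -0.31 with Spi1, from 0.18, 0.17 and 0.18 before. Syk, Tox and Cdk6 then had -0.28, -0.25 and -0.17 with Bcl11b, from 0.19, 0.13 and 0.41. The subtracted level is a mean that includes these partners, so a shift towards negative values follows in part from the subtraction. Nothing is read from the change of sign. These pairs were singled out after their values were seen. All such correlations are descriptions over cells that share 1 run and differ in overall level.

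**Figure D3:**
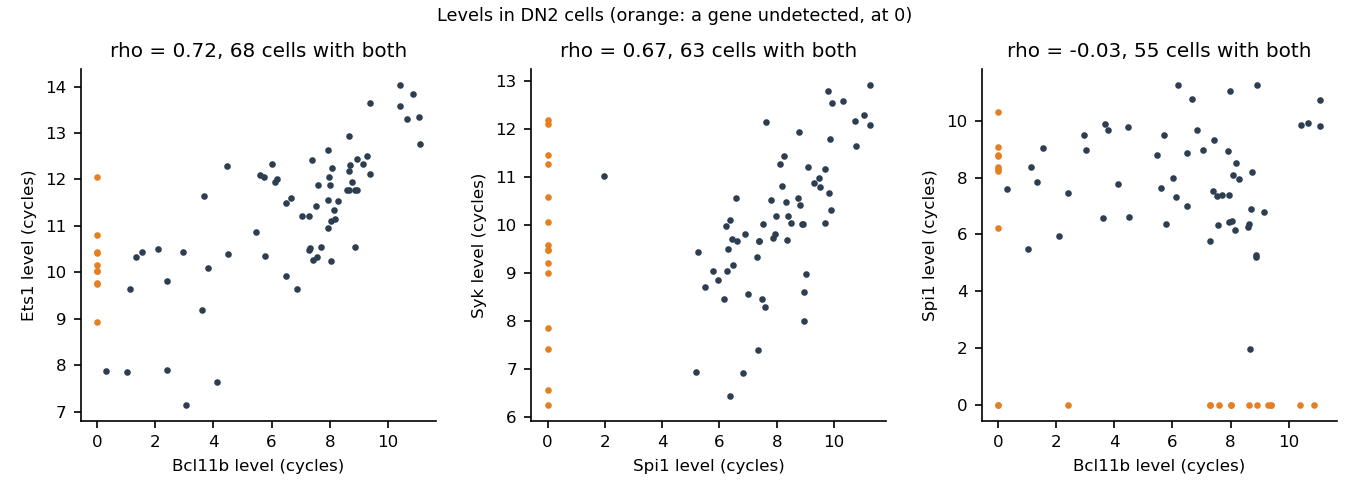
Level in single DN2 cells (both axes 24 minus Ct, in cycles) for Bcl11b and Ets1, Spi1 and Syk, and Bcl11b and Spi1; dark points are cells with both genes and orange points have a gene undetected, placed at 0. The cloud climbs in the first and second panels (Spearman correlations 0.72 and 0.67) and is flat in the third (-0.03).

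Other level correlations of the splitting genes were as follows. Zbtb16 went with Myb (0.64 over 42 cells), which was 0.34 after the overall level of the cell was subtracted. Rag2 went with Tcf12 (0.47 over 44 cells, 0.45 after) and with Bcl11b (0.39 over 42, 0.28 after). Maf went with Syk (0.55 over 47, 0.42 after) and with Spi1 (0.48 over 37, 0.28 after). Sox13 went with Smo, the transducer of Hedgehog signals (0.51 over 69 cells, 0.16 after). In the other populations the pair Bcl11b and Ets1 had correlations of 0.64, 0.65 and 0.74 in the B6 DN1d runs and 0.63 in the Tcrd-/- run, and of -0.03, 0.02 and 0.23 in the Rag1-/- cKit- runs. Ets1 and Tcf12 stood at 0.80 over the 75 DN2 cells with both and at 0.30 to 0.63 in the 7 other runs. Bcl11b and Ets1 thus moved together in the DN1d runs as well, while Spi1 and Syk were both detected in at most 6 cells of any other run.

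Among the 21 assays seen in at least 90% of cells there are 210 pairs, with an undetected gene at level 0. Every pair had a positive correlation, from 0.06 to 0.88 with a median of 0.52. A cell that was high for 1 of these genes was thus in general high for the others. After the overall level of the cell was subtracted the correlations ran from -0.38 to 0.56 with a median of 0.0039. A balance around 0 follows from that subtraction, since the overall level is the mean of these same genes, and nothing is read from it. The 8 largest correlations were Cdk6 with Gapdh (0.88), Mcm2, a replication helicase subunit, with Smo (0.81), Cdk6 with Myb (0.81), Ets1 with Tcf12 (0.79), Gapdh with Myb (0.79), Gapdh with Mcm2 (0.77), Dna2, a replication nuclease, with Mcm2 (0.77) and Cdk6 with the E47 form of Tcf3 (0.77). Subtraction left 0.54, 0.43, 0.37, 0.49, 0.17, 0.0014, 0.44 and 0.22 in that order. Cdk6 with Syk (0.56) and Sox4 with Tox (0.43) were also high after it, and Gata3 with Mcm2 was lowest (-0.38). The replication genes Mcm2 and Dna2, and Ets1 with Tcf12, were thus correlated on both scales, and Gapdh with Mcm2 on the first alone.

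**Figure D4:**
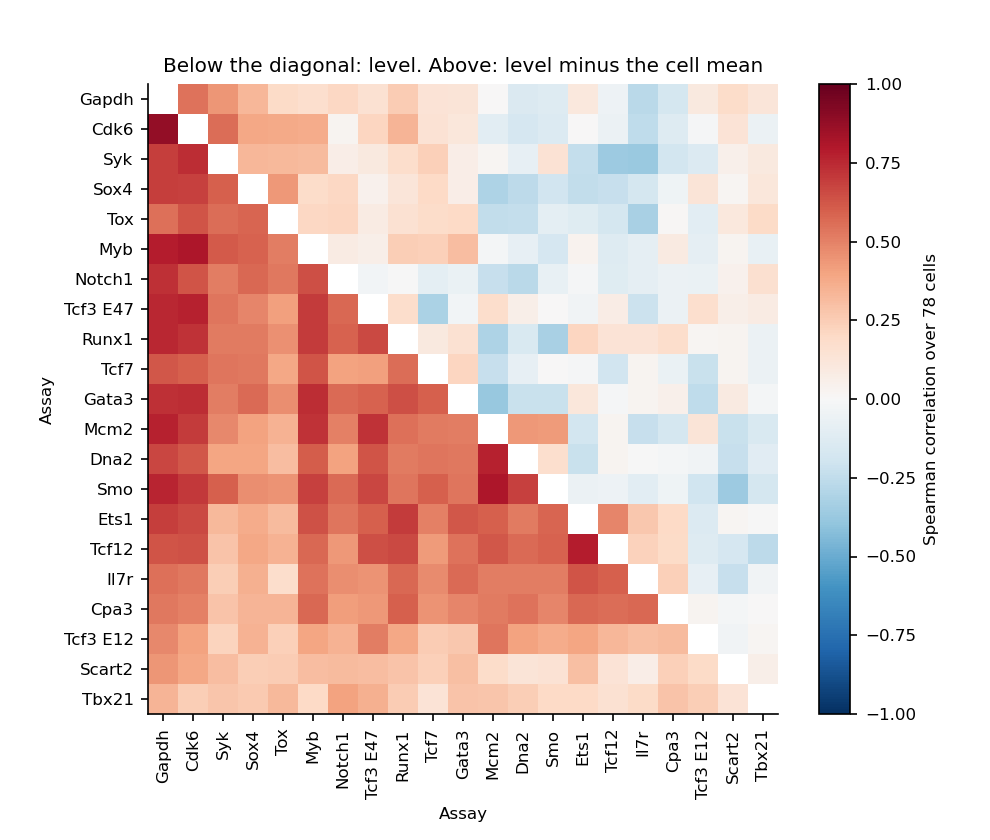
Spearman correlation over 78 DN2 cells (colour scale from -1 to 1) for each pair of the 21 assays detected in at least 90% of cells. Below the diagonal, on levels, all 210 pairs are positive (0.06 to 0.88); above it, with the mean level of the cell subtracted, they run from -0.38 to 0.56, and Cdk6 with Gapdh and Syk, Mcm2 with Dna2 and Smo, and Ets1 with Tcf12 stand out as red.

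Detection of the 16 middle assays gave 120 pairs, described by a natural log odds ratio for finding both genes in a cell (0.5 added to each count). It ran from -1.44 to 2.11 with a median of 0.11, 72 pairs above 0 and 47 below. The largest was Bcl11b with Nfil3 (2.11): 19 cells had both, 49 Bcl11b alone, 0 Nfil3 alone and 10 neither. Next were Nfil3 with Sox13 (1.99), Blk with Spi1 (1.81), Egr2 with Sox13 (1.77), Il17re with Spi1 (1.69), Blk with Gpr183 (1.68), Blk with E2f2 (1.63), Nfil3 with Rag2 (1.58), Gpr183 with Spi1 (1.56) and Egr2 with Gpr183 (1.54). The 5 lowest were Bhlhe40 with Gpr183 (-1.44), Bcl11b with Blk (-1.34), E2f2 with Il17re (-1.12), Bhlhe40 with Blk (-1.05) and Egr2 with Rag2 (-1.0). In 9 of the 120 pairs a square of the table was empty, which is so for 7 of the 10 highest. Nfil3 with Rag2 has none empty: 16 cells had both, 29 Rag2 alone, 3 Nfil3 alone and 30 neither. All 19 cells with Nfil3 had Bcl11b and Sox13, as had all 9 cells with Il17re. Bcl11b and Sox13 were each common, and independent genes would give 16.6 and 16.8 of the 19. Of the 9 with Il17re they would give 7.85 and 7.96.

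Detection in DN2 was then compared with B6 DN1d, the population with the same strain and ages, using 1 value per run, the logit of the share of cells, and limma with Benjamini-Hochberg adjustment over 47 assays. The p-values rest on differences among runs, part of which may be technical, and the single DN2 run was assumed to vary like the others. Of 47 assays, 31 passed an adjusted p of 0.05 (66%), 21 higher in DN2 (44.7%) and 10 lower (21.3%). Against Rag1-/- cKit- cells, whose genotype, age and gate differ too, 27 of 47 passed (57.4%), 19 higher (40.4%) and 8 lower (17%). Both comparisons use the same DN2 run.

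The 6 splitting genes fell into 3 kinds. Rag2 was detected in 0 of 72, 1 of 70 and 0 of 81 cells of the DN1d runs, 2 of 86 Tcrd-/- cells and no Rag1-/- cKit- cell, against 45 of 78 in DN2. DN2 was higher than DN1d by 4.94 ± 0.54 (SE) logit units (adjusted p 6.88e-08). Spi1 was in 2.78%, 5.71% and 12.3% of cells in the DN1d runs, in 1.12%, 0% and 1.22% in the Rag1-/- cKit- runs and in 3.49% of Tcrd-/- cells, against 80.8%. It was higher in DN2 by 4.06 ± 0.55 logit units than in DN1d (adjusted p 1.14e-06) and by 5.65 ± 0.55 than in Rag1-/- cKit- cells (adjusted p 1.71e-08). The DN2 shares of Rag2 and Spi1 thus lay above those of all 7 other runs, of which the Tcrd-/- run was not tested.

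Zbtb16 was in 8.33%, 12.9% and 3.70% of DN1d cells and 9.30% of Tcrd-/- cells, but in 66.3%, 46.2% and 68.3% of Rag1-/- cKit- cells. Its DN2 share of 53.8% was higher than in DN1d by 2.59 ± 0.55 logit units (adjusted p 0.000270). It lay inside the range of the Rag1-/- cKit- runs, from which it differed by -0.27 ± 0.55 (adjusted p 0.753). Sox13 was in 36 of 72, 31 of 70 and 26 of 81 DN1d cells and 11.2%, 3.85% and 15.9% of Rag1-/- cKit- cells, against 88.5% in DN2. It was higher by 2.31 ± 0.55 logit units than in DN1d (adjusted p 0.000758) and by 4.21 ± 0.55 than in Rag1-/- cKit- cells (adjusted p 7.69e-07). The difference from DN1d was not held at matched yield: with shares standardised to the number of other assays detected it was -0.59 (adjusted p 0.474). Whether that number follows the capture of a cell or the kind of cell was not tested. The Tcrd-/- run reached 96.5%.

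Bcl11b and Maf passed neither comparison as reported. Bcl11b was in 90.3%, 85.7% and 37% of DN1d cells and 87.2% of DN2 cells, so that the third DN1d run stood far from the others (0.74 ± 0.71 logit units, adjusted p 0.355). Maf was in 75%, 72.9% and 54.3% of DN1d cells, against 60.3% (-0.33 ± 0.51, adjusted p 0.560). At matched yield the difference of Maf from DN1d was -2.18 logit units and passed (adjusted p 0.00511). With detection at Ct below 20 that from Rag1-/- cKit- cells was -1.18 and passed (adjusted p 0.0492). The level of both genes over detected cells is taken up below.

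The progenitor list (Spi1, Myb and Cpa3) was higher in DN2 for 3 of 3 members in both comparisons, with a median difference of 5.19 logit units from DN1d against 0.99 over all assays tested. Cpa3 was in 100% of DN2 cells, 14.8% to 18.6% of cells in the DN1d runs and 0 of 223 Rag1-/- cKit- cells. Myb was in 37% to 54.2% of DN1d cells and 4.49% to 7.69% of Rag1-/- cKit- cells. In the Tcrd-/- run, which was not tested, Cpa3 was in 72.1% of cells and Myb in 91.9%, but Spi1 in 3.49%. Of 4 cell cycle and replication genes, Cdk6, Mcm2 and Dna2 were higher in both and E2f2 in neither. The share higher over all assays was 44.7% against DN1d and 40.4% against Rag1-/- cKit- cells. Dna2 was in 91% of DN2 cells and 8.33% to 8.64% of DN1d cells. The Tcrd-/- run had Cdk6 in 91.9% of cells, Mcm2 in 60.5% and Dna2 in 16.3%. Syk (6.02), Tcf3 E47 (5.83) and Notch1 (5.72), which belong to other lists, differed from DN1d by more logit units than these genes other than Cpa3 (6.61). Cpa3, Myb, Cdk6, Syk, Tcf3 E47 and Notch1 were in 100% of DN2 cells and so have the same DN2 logit, 5.06. Their order therefore follows the DN1d shares alone.

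Of the 11 assays of the T lineage specification list, 7 were higher, 1 lower and 3 not past the threshold in each comparison, with a median of 3.23 logit units from DN1d against 0.99 over all assays. Over all assays 44.7% were higher than in DN1d and 40.4% higher than in Rag1-/- cKit- cells. Notch1, Tcf7, Runx1, Rag2, Tcf12 and both forms of Tcf3 were higher. Notch1 was in 30% to 37% of DN1d cells and 50% to 60.7% of Rag1-/- cKit- cells. The Tcrd-/- run, not tested, had Notch1 in 77.9% of cells, Tcf3 E47 in 80.2%, Tcf7 in 91.9% and Runx1 in 98.8%, but Rag2 in 2.33%. Lef1, a partner of Tcf7 that appears later in T cell development, was lower: 6 of 78 DN2 cells against 47.1% to 50.6% of DN1d cells (-2.35 ± 0.52, adjusted p 0.000451). Gata3, Ets1 and Bcl11b did not pass. Gata3 and Ets1 were in 97.1% to 100% of DN1d cells and 98.8% to 100% of Rag1-/- cKit- cells. For these genes there was thus almost no room for a higher share in DN2. The call of Tcf7 against Rag1-/- cKit- cells was lost at matched yield, where the difference was -0.26 (adjusted p 0.794). That of Lef1 against the same cells was lost without their first run (adjusted p 0.0817) or the third (0.107), and that of Tcf3 E12 without the first (0.146) or the second (0.182). At matched yield the calls of Tcf12 (0.215) and Tcf3 E12 (0.356) against these cells were lost too.

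The Tgd17 list, genes of the interleukin 17 programme of gamma delta T cells, was mixed: of 11 assays 4 were higher, 3 lower and 4 not past the threshold against DN1d, with a median of -0.66 against 0.99 over all assays. Over all assays 44.7% were higher and 21.3% lower, so that these counts are near the background. Sox13, Sox4, Tcf12 and Il7r were higher. Cd163l1, a scavenger receptor gene, was lower, in 1 of 78 cells against 13.6% to 33.3% of DN1d cells and 73.2% to 84.6% of Rag1-/- cKit- cells. Etv5 was lower against DN1d alone. Blk, Maf, Scart2 and Il17re were not past the threshold against DN1d, and Il17re was lower against Rag1-/- cKit- cells (11.5% against 28.8% to 42.7%, adjusted p 0.0309). Sox4, in 100% of DN2 cells and 84.7% to 90.1% of DN1d cells, was not past it at matched yield (adjusted p 0.205). Sox13, Sox4, Tcf12, Il7r, Scart2 and Maf were thus each detected in most DN2 cells, while Cd163l1, Etv5, Il17re and Blk were each in 10 or fewer.

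Of the innate lymphoid list, Zbtb16 and Tox were higher than in DN1d and Id2 and Nfil3 were not past the threshold. With 44.7% of all assays higher than in DN1d, 2 of 4 is near the background. Against Rag1-/- cKit- cells Tox was higher, and Id2 and Nfil3 were lower, where 40.4% of all assays were higher and 17% lower. Id2 was in 78.2% of DN2 cells and 98.9% to 100% of Rag1-/- cKit- cells (-3.36 ± 0.55, adjusted p 1.53e-05), and Nfil3 in 24.4% against 40.4% to 63.4% (adjusted p 0.0446). The DN2 shares of Id2 and Nfil3 thus lay below those of the Rag1-/- cKit- runs, while that of Zbtb16 lay within their range. Whether the cells with Zbtb16 held Id2 and Nfil3 alike in both populations was not compared. Of the homing and cytokine receptors, Il7r was higher than in DN1d, and Ccr9 and Gpr183 were lower in both comparisons. The share lower over all assays was 21.3% against DN1d and 17% against Rag1-/- cKit- cells. Ccr9, a chemokine receptor for thymic homing, was in 1 of 78 DN2 cells against 32.1% to 50% of DN1d cells. Its call against Rag1-/- cKit- cells was lost without their first run (adjusted p 0.0776).

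Of the receptor signalling list, Syk was higher in both comparisons (100% against 26.4% to 28.4% of DN1d cells), and Blk and Egr2 passed neither. Among all assays 44.7% were higher against DN1d and 40.4% against Rag1-/- cKit- cells. Vg2-Jg1 and Vd4-Jd1 were lower than in DN1d, where Vg2-Jg1 was in 30.0% to 47.2% of cells. Csf2rb2 and Gp49a were lower than in DN1d, at 11.1% to 21% and 11.1% to 22.2% of its cells, and Csf2rb2 was not past the threshold at matched yield (adjusted p 0.198). Csf1r passed as higher in both, a call that rests on 2 DN2 cells against 0 cells in the 6 runs compared and was lost against Rag1-/- cKit- cells at matched yield (adjusted p 0.105). The type 1 effector genes Tbx21 and Gzma passed neither. Smo, which is in none of the lists, was in 98.7% of DN2 cells, 25.7% to 30.9% of DN1d cells and 1.92% to 7.87% of Rag1-/- cKit- cells. The Tcrd-/- run, not tested, had Smo in 83.7% and Syk in 59.3% of cells.

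The level in detected cells, apart from how many cells were detected, was compared with DN1d for the 36 assays with at least 5 detected cells in DN2 and each DN1d run. With limma 1 passed (2.78%), higher in DN2, and 10 had an unadjusted p under 0.05. Cdk6 had a mean level of 13.81 cycles in DN2 and of 9.49, 8.51 and 9.98 in the DN1d runs, a difference of 4.49 ± 1.28 (SE, adjusted p 0.0293). It was not past the threshold with medians over cells (adjusted p 0.0686) or without the first DN1d run (0.442). Bcl11b stood at 6.79 against 5.46, 5.76 and 4.23 (adjusted p 0.352), Maf at 5.35 against 8.13, 6.21 and 9.12 (0.162), and Sox13 at 7.16 against 9.44, 8.92 and 10.23 (0.177). In these 3 genes the DN2 mean lay outside the range of the DN1d runs, above it for Bcl11b and below it for Maf and Sox13, without passing. The mean level of Sox13 was 2.37 cycles below that of DN1d, and its higher detection in DN2 was not held at matched yield, as given above. Without the second DN1d run Maf passed, at -3.27 cycles (adjusted p 0.0338).

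Gene pairs were compared last, by their log odds ratio in DN2 and in each DN1d run, over 153 pairs of genes with at least 5 detected and 5 undetected cells in each run. With limma 15 passed (9.8%), 5 higher in DN2 (3.27%) and 10 lower (6.54%), and 32 had an unadjusted p under 0.05. The 15 share few genes: 8 hold Blk and 6 hold Sox13. These calls were not stable: none of the pairs passed with detection at Ct below 22, with odds ratios stratified by the number of other assays detected, or without the first DN1d run, 4 passed without the second and 8 with weights by counting variance. Blk with Sox13 had a log odds ratio of -0.12 in DN2, where 9 cells held both, 1 Blk alone, 60 Sox13 alone and 8 neither. In the DN1d runs it was 6.04, 6.84 and 3.67. Maf with Sox13 had -0.78 in DN2, against 4.29, 2.22 and 2.01, and Gzma with Sox13 -0.06 against 2.24, 4.43 and 3.93. The DN2 value lay outside the DN1d range for all 15, as the plot of pair odds shows. The choice of pairs by this same difference favours that, so it adds no support. In each DN1d run Blk, Maf, Gzma and Etv5 had positive log odds ratios with Sox13. In DN2 these were -0.12, -0.78, -0.06 and 0.67, but Sox13 was undetected in only 9 of the 78 DN2 cells. It was in 9 of 10 cells with Blk, 40 of 47 with Maf, 23 of 26 with Gzma and 6 of 6 with Etv5.

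**Figure D5:**
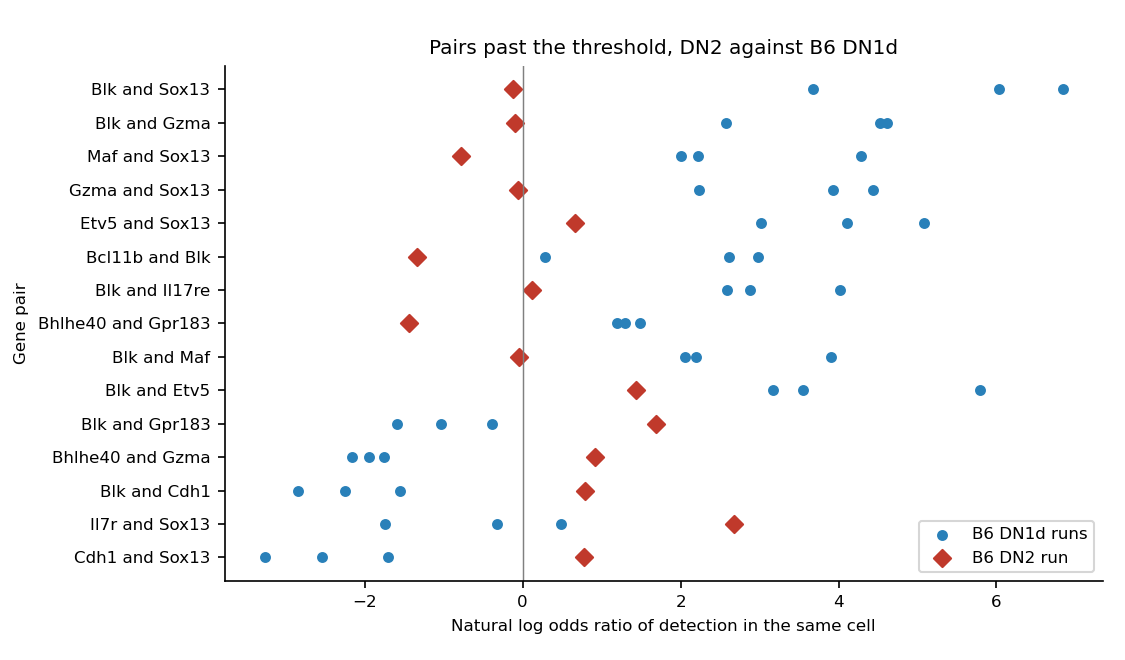
Natural log odds ratio of 2 genes being detected in the same cell (horizontal axis) for the 15 pairs past the threshold, in the B6 DN2 run (red diamonds) and the 3 B6 DN1d runs (blue points). In each row the diamond lies outside the blue points, which the choice of pairs by that difference favours. For Blk and Sox13 the diamond is at -0.12 against 3.67 to 6.84.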

How the data were processed

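The authors deposited raw threshold cycles (Ct), 1 for every assay in every cell, in a single table. Per the labels' protocols, single cells were captured, lysed and reverse transcribed, preamplified for 18 cycles with pooled primers and read in 30 cycles of PCR with a melt curve. The sources used here do not give how Ct was called or who set the ceiling of 24. In DN2, 40.7% of 3744 reactions stood at 24 and were taken as undetected. A missed reaction and an absent transcript cannot be told apart. Each of the 610 columns matched 1 sample by title, and no 2 columns were identical.

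Level was 24 minus Ct. The run, a token in the titles, was the replicate, with 1 value per run. Detection was the logit of the share (0.5 added to each side) in 1 limma fit of all 8 runs, with 4 residual degrees of freedom. Level in detected cells and pair log odds ratios were fitted over the DN2 run and 3 B6 DN1d runs with 2, and there limma in effect pooled the spread over all features. Matched yield means shares standardised directly over 3 bins of the number of other assays detected. Only bins with at least 3 cells in every run were used, so cells of any other bin were left out. Benjamini-Hochberg adjustment covered all features of a comparison, with a threshold of 0.05. Each test was first tried on simulated data with known answers, in which the DN2 run varied like the others. That trial cannot speak to a DN2 run that varied otherwise. Tools were limma 3.58.1 in R 4.3.3, and Python 3.11.15 with pandas 2.3.3, numpy 2.4.6, matplotlib 3.10.9 and scipy 1.17.1.

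Members, gene lists and tests were chosen with earlier results of these data known. Named were all assays by count, the 6 splitting genes, the 4 largest differences each way per split, the 10 highest and 5 lowest pairs, the 8 strongest level correlations, the 8 widest ranges, and up to 25 genes or 10 pairs past the threshold. The results of 1 further gene are left out of the text but not of the counts. Of 48 assay names, 43 matched a RefSeq symbol of GRCm38.p6 and 2 a synonym.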

Additional observations from a re-analysis of the deposited data

Results flagged for a closer look

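Of the pairs whose log odds ratio of detection in the same cell differed between DN2 and B6 DN1d, the 10 largest stand for a closer look, because the difference itself passed the test. For Blk with Sox13 the DN2 value minus the mean of the DN1d runs was -5.63. It was -4.01 for Blk with Gzma, -3.62 for Maf with Sox13, -3.60 for Gzma with Sox13, -3.40 for Etv5 with Sox13, -3.30 for Bcl11b with Blk and -3.04 for Blk with Il17re. It was 3.29 for Cdh1 with Sox13, 3.21 for Il7r with Sox13 and 3.01 for Blk with Cdh1. Each has a standard error of 0.95, since the spread was pooled over pairs. That pooling treats pairs as independent, although many share a gene and are not. The squares behind them in DN2 are small: 10 cells held Blk, 6 held Etv5 and 9 lacked Sox13. None of the 10 passed with detection at Ct below 22, stratified by the assays detected or without the first DN1d run. Weighted by counting variance, Etv5 with Sox13, Bcl11b with Blk, Cdh1 with Sox13, Blk with Il17re and Blk with Cdh1 did not pass.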

How the results depend on the processing

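The count of assays whose detection differed from B6 DN1d was 29 to 36 of 47 under the alternatives tried, and that against Rag1-/- cKit- cells 21 to 27. Leaving out a run in turn gave 30 to 36 and 22 to 27. For level in detected cells the count was 3 with the Gapdh level of the cell subtracted, 0 with medians over cells and 0 to 8 without a DN1d run, against 1 of 36 as reported. For pairs it was 0 with detection at Ct below 22, 0 stratified by the assays detected, 8 with weights by counting variance and 0 to 15 without a DN1d run, against 15 of 153. At matched yield the difference reversed for Sox13 against DN1d (-0.59) and for Tcf7 against Rag1-/- cKit- cells (-0.26), neither past the threshold. The cause was not tested. The 144 alternatives for differences of share between DN2 cells with and without a splitting gene stayed within their counting intervals. Part of this was fixed in advance: the setting of cells with 15 or more assays left out no DN2 cell and could not change a value. The intervals are also wide where a side holds few cells, so little is read from this count. No paired analysis was possible because DN2 has 1 run. What limits these results is the single DN2 run, the 9 to 15 cells on the negative side of Sox13, Bcl11b and Spi1, and detection near the ceiling for Bcl11b, Maf, Id2 and Tbx21.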
